A study of Mus musculus with 6 samples.

Results

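De novo lipogenesis, the making of new fatty acids from sugar-derived carbon, was followed in the liver through 10 genes: Slc25a1, Acly, Acss2, Me1, Acaca, Acacb, Fasn, Thrsp, Srebf1 and Mlxipl. They were chosen by name as enzymes and regulators of this pathway, not by a threshold on measured values but with earlier results of these data known, and make up 10 of the 55385 genes in the count table. RNA came from the livers of 3 male mice that had undergone vertical sleeve gastrectomy (VSG, bariatric surgery in which the stomach is cut down to a narrow tube) and of 3 sham-operated male mice. All 6 mice, of the C57BL/6 strain per the study's methods, were 6 to 8 weeks old when a high-fat diet (HFD) was started. They were fed it for 10 weeks before the operation and for 12 weeks after it. Both groups were thus HFD-fed and operated on, no lean or unoperated group belongs to the comparison, and the feeding state and hour at which the livers were taken are not given in the sources used here. The question was whether the lipogenic genes differed in transcript level 12 weeks after VSG.

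In the liver, pyruvate enters mitochondria, is turned into citrate, and citrate is exported to the cytosol, where it is split into acetyl-CoA. Acetyl-CoA carboxylase makes malonyl-CoA from it, and fatty acid synthase joins these units into palmitate with NADPH as the reductant. The enzymes are controlled largely through transcription: SREBP-1c, encoded by Srebf1, carries the insulin signal, and ChREBP, encoded by Mlxipl, carries the carbohydrate signal. Malonyl-CoA also blocks the entry of fatty acids into mitochondria for oxidation, so the pathway is known for linking the making of fat to its burning.

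The promoter sequences of 6 starts of these genes are shown because the binding elements of the pathway's regulators are usually sought there. They are the 250 bases before a RefSeq start of the gene (RefSeq, GRCm38.p6), read 5′ to 3′ on the gene's strand. Capitals mark matches to the core of a sterol regulatory element (TCACNCCAC), the E-box (CANNTG) or the CCAAT box (CCAAT), on either strand. E-box and CCAAT matches can overlap each other, as in Fasn. All 10 genes were matched to the table, with 14 starts in all.
Fasn (chr11:120824548-120824797, minus strand): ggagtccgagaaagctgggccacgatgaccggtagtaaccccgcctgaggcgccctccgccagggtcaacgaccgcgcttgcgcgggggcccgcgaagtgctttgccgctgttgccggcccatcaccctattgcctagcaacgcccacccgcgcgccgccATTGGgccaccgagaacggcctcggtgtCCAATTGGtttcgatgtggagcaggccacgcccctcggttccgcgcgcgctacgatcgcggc
Acacb (chr5:114165268-114165517, plus strand): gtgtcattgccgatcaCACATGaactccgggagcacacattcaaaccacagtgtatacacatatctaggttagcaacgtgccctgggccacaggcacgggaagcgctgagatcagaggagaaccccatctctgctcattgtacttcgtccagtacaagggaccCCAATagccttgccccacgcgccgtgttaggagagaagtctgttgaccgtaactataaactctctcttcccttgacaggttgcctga
Slc25a1 (chr16:17928220-17928469, minus strand): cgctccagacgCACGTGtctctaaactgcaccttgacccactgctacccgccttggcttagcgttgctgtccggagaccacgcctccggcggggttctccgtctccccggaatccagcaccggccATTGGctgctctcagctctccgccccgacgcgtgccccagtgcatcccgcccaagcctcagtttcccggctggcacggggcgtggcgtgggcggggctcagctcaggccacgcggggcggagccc
Srebf1 start 3 (chr11:60210472-60210721, minus strand): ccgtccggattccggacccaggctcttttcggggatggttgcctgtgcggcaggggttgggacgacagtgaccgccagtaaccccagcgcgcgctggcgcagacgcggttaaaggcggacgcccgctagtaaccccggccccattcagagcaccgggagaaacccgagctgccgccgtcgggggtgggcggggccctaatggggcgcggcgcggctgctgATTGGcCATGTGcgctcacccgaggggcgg
Mlxipl start 1 (chr5:135089640-135089889, plus strand): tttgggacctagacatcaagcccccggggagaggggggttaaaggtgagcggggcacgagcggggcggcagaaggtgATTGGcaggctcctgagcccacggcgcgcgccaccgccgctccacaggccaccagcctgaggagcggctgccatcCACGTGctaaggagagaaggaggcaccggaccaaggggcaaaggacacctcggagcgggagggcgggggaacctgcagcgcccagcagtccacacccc
Mlxipl start 2 (chr5:135106641-135106890, plus strand): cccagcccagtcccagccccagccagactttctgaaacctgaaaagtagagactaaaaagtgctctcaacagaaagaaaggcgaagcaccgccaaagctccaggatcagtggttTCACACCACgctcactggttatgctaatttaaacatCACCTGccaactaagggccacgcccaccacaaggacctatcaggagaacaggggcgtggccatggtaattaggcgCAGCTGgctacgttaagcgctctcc

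The Fasn and Slc25a1 windows and the first Mlxipl window lie outside any gene of the GENCODE M21 annotation (GRCm38). The Srebf1 window and the second Mlxipl window lie in introns of their own genes, and so does the Acacb window apart from its last bases, of which 9 are annotated as exon. A CCAAT box was found before at least 1 start of 8 of the 10 genes and before 37.5% of the 27025 genes in the RefSeq table. In the Fasn window 3 such boxes begin at -90, -62 and -59 from the start. The palindromic E-box CACGTG stands before Mlxipl (-98) and Slc25a1 (-239), and before 6.86% of all genes. The sterol regulatory core was matched only in the second Mlxipl window (-136) among the 14 windows, and in 1.05% of all 32851 windows. These are matches of letters and not measured binding.

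Of the 10 lipogenic genes, 7 fell after VSG (edgeR quasi-likelihood test, adjusted p under 0.05 over all 14454 genes tested). None rose by edgeR, at an unadjusted p under 0.05 or by DESeq2. The background was 7.87% of tested genes lower and 6.79% higher by the same rule. At an unadjusted p under 0.05 it was 17% lower and 16.9% higher, and by DESeq2 it was 12.3% lower and 10.5% higher. Thrsp fell the most, followed by Me1 and Acacb, while Fasn, Acaca, Srebf1 and Slc25a1 fell to between 44.4% and 64.8% of the sham mean. Acly, Acss2 and Mlxipl did not pass the test. In 8 of the 10 genes all 3 VSG libraries lay below all 3 sham libraries, against 19.8% of tested genes. The median log2 fold change (VSG over sham) was -0.82 for the 10 genes and 0.03 for all genes tested.

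The libraries held 22804397 to 24191778 counts, and the 10 genes took 0.129% to 0.159% of them in sham and 0.0639% to 0.0774% in VSG. Levels are given as CPM (counts scaled to a common library size, with TMM factors of 0.897 to 1.15) and as mean ± SD over 3 libraries. In these bulk samples, fewer cells of a type and less RNA per cell cannot be told apart. Hepatocyte markers were present in every library, Alb reaching 61460 ± 17650 CPM in the sham livers and 49970 ± 12260 CPM after VSG, and none of the 10 hepatocyte markers passed edgeR's test. By DESeq2, and at an unadjusted p under 0.05 in edgeR, 3 of these 10 were lower in VSG, and edgeR called 2 lower without VSG replicate 5 and 1 lower under total-count scaling. Of 8 markers of adipocytes, which also make fatty acids, Adipoq, Lep, Retn, Plin1 and Slc7a10 had at most 2 counts in any library, Acvr1c at most 9 and Cfd at most 66. With all libraries only Adrb3, a beta-adrenergic receptor gene, had enough counts to be tested, and it rose from 5.91 ± 0.151 to 10.8 ± 2.9 CPM (log2 fold change 0.87, edgeR adjusted p = 0.0431). With 1 library left out it passed only without VSG replicate 4, and limma-voom, limma on log2(FPKM + 1) and total-count scaling did not call it. Cfd, which encodes complement factor D, averaged 1.56 ± 1.47 CPM in the sham livers against 0.121 ± 0.105 CPM after VSG. It passed the filter on low counts only in fits that left out sham replicate 1 or a VSG library, and only through the sham libraries. This fixes its direction, so a call in these fits is not counted. The summed level of the 8 markers was 6.24 to 9.18 CPM in sham and 7.51 to 13.4 CPM in VSG, and its part in the lipogenic changes was not tested.

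**Figure D1:**
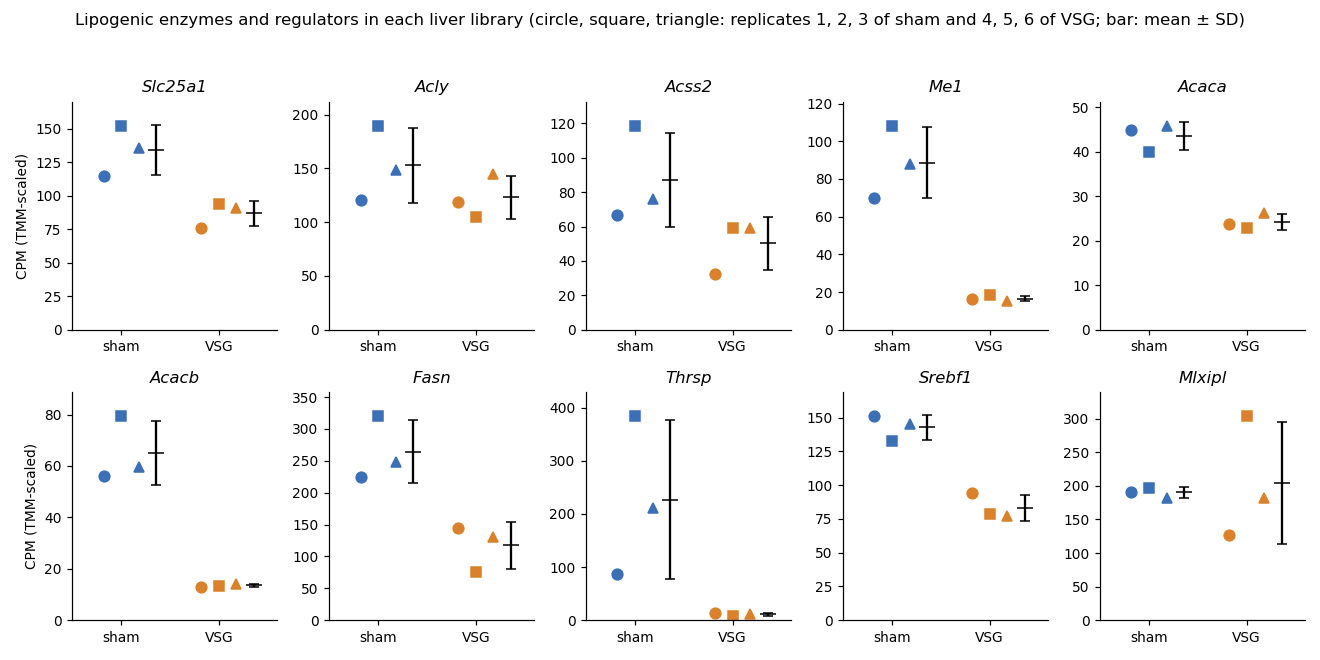
Level of the 10 lipogenic genes in each liver library, in TMM-scaled CPM on linear axes that start at 0; blue points are sham libraries, orange points VSG libraries, and black bars the mean ± SD of 3 libraries. Acacb, Me1 and Thrsp are near the axis in all VSG libraries, while the VSG points of Mlxipl run from 126.5 to 303.6 CPM on both sides of the sham points.

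Citrate export comes first in the pathway. Slc25a1, the citrate carrier of the mitochondrial inner membrane (chromosome 16, 17925223 to 17928219, minus strand), was counted at 114.5, 151.9 and 135.2 CPM in sham replicates 1, 2 and 3 and at 75.8, 93.7 and 90.8 CPM in VSG replicates 4, 5 and 6. All VSG libraries were below all sham libraries. It fell by 0.63 on the log2 scale (SE 0.144, edgeR adjusted p = 0.0349). This was the smallest change among the 7 genes that passed, and the call was lost when any of sham replicates 2 and 3 or VSG replicates 4 and 6 was left out (adjusted p between 0.0785 and 0.13).

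Acly, ATP citrate lyase, which splits exported citrate into acetyl-CoA and oxaloacetate (chromosome 11, 100476353 to 100528000, minus strand), stood at 120.3, 189.4 and 148.6 CPM in sham. In VSG it stood at 119.2, 105.1 and 145 CPM, so the groups overlapped. Its log2 fold change was -0.31 (95% interval -0.79 to 0.16, edgeR adjusted p = 0.308), an interval that holds no change as well as the -0.63 of Slc25a1. Acly passed under none of the 13 alternative settings.

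Acss2, the cytosolic acetyl-CoA synthetase that makes acetyl-CoA from acetate (chromosome 2, 155517948 to 155585724, plus strand), was at 66.9, 118.4 and 75.9 CPM in sham and at 32.4, 59.1 and 58.9 CPM in VSG. The groups did not overlap, but the highest VSG library was close to the lowest sham library. The log2 fold change was -0.80 (95% interval -1.51 to -0.08, edgeR adjusted p = 0.116). Scaling by total counts alone, which shifts the median of all genes to -0.11 on the log2 scale, brought its adjusted p to 0.0494. Exons of Acss2 overlap those of Gss on the opposite strand over 395 bases, and the strand option of the counting was not given, so a part of its counts could belong to Gss.

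Me1, the cytosolic malic enzyme, which supplies NADPH while turning malate into pyruvate (chromosome 9, 86581371 to 86695953, minus strand), was at 70.2, 108.1 and 88 CPM in sham replicates 1 to 3. The VSG libraries were at 16.1, 18.3 and 15.3 CPM. The lowest sham library was 3.83 times the highest VSG library. Me1 fell by 2.42 on the log2 scale to 18.7% of the sham mean (SE 0.177, edgeR adjusted p = 0.00197) and ranked 24 by p among all genes tested. It passed in all 13 alternative settings, with adjusted p-values up to 0.0234.

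The committed step of the pathway has a pair of enzymes. Acaca encodes ACC1, the cytosolic acetyl-CoA carboxylase whose malonyl-CoA feeds fatty acid synthase, and lies at chromosome 11, 84129672 to 84401651, plus strand. It was at 44.8, 40 and 45.8 CPM in sham and at 23.7, 22.8 and 26.3 CPM in VSG. These were among the tightest groups of the pathway, with a coefficient of variation of 7.16% in sham and 7.48% in VSG. Acaca fell by 0.84 on the log2 scale (SE 0.102, edgeR adjusted p = 0.00809), and the adjusted p was 0.0519 without sham replicate 3.

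Acacb encodes ACC2, the carboxylase at the outer mitochondrial membrane whose malonyl-CoA restrains the uptake of fatty acids by carnitine palmitoyltransferase (chromosome 5, 114146535 to 114250761, plus strand). Sham libraries were at 56, 79.3 and 59.5 CPM, and VSG libraries at 13.1, 13.4 and 14 CPM. The VSG libraries were nearly equal, with a coefficient of variation of 3.58%, and lay far below sham. Acacb fell by 2.27 on the log2 scale to 20.8% of the sham mean (SE 0.152, edgeR adjusted p = 0.00177), ranked 15 by p of all genes tested, and passed in all 13 alternative settings.

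Fasn, fatty acid synthase, which builds palmitate from malonyl-CoA and NADPH, lies at chromosome 11, 120805846 to 120824547, minus strand, next to the window with 3 CCAAT boxes shown above. It was at 225.2, 319.6 and 247.6 CPM in sham and at 145.1, 76 and 131 CPM in VSG. All VSG libraries were below all sham libraries, and VSG replicate 5 was the lowest. Fasn fell by 1.17 on the log2 scale (SE 0.266, edgeR adjusted p = 0.0338). It no longer passed when any 1 of the sham libraries or VSG replicate 6 was left out, with adjusted p-values from 0.0568 to 0.114. Fasn and Srebf1 are also among the genes that the study itself displays from these libraries.

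Thrsp, which encodes the lipogenic nuclear protein Spot 14 and is known to respond to thyroid hormone and carbohydrate, lies at chromosome 7, 97412938 to 97417730, minus strand. It was at 86.9, 383.3 and 210.8 CPM in sham replicates 1, 2 and 3. In VSG it was at 13.1, 7.52 and 11.6 CPM. The sham libraries spanned 4.41 times from lowest to highest, the widest sham spread of the 10 genes, and the lowest of them was still 6.64 times the highest VSG library. Thrsp fell by 4.40 on the log2 scale to 4.74% of the sham mean (SE 0.576, edgeR adjusted p = 0.00992). Without sham replicate 2, the highest, the log2 fold change was -3.80 (adjusted p = 0.0166). The adjusted p was 0.0512 without sham replicate 3 and 0.0576 without VSG replicate 6.

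Srebf1 encodes SREBP-1, the transcription factor of the insulin-driven arm (chromosome 11, 60199089 to 60222581, minus strand). It was at 150.9, 132.9 and 145.2 CPM in sham and at 94.2, 78.3 and 77.2 CPM in VSG. The groups were tight and separate, and Srebf1 fell by 0.78 on the log2 scale (SE 0.12, edgeR adjusted p = 0.0142). It no longer passed without sham replicate 3 (0.0756) or VSG replicate 6 (0.0686). Gene counts sum over all 12 annotated transcripts, so SREBP-1a and SREBP-1c, which begin at different starts, were not separated. Exons of Srebf1 overlap those of Rai1 on the other strand over 109 bases.

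Mlxipl encodes ChREBP, the carbohydrate-responsive factor (chromosome 5, 135089890 to 135138382, plus strand), and had the only positive log2 fold change of the 10, which was -0.03 under total-count scaling. The sham libraries were close together at 191.6, 197.5 and 181.9 CPM. The VSG libraries were spread out at 126.5, 303.6 and 182.3 CPM, 1 above all sham libraries, 1 below all of them and 1 between. The coefficient of variation was 4.14% in sham and 44.4% in VSG, the widest VSG spread of the 10 genes. The log2 fold change was 0.10 (95% interval -0.61 to 0.81, edgeR adjusted p = 0.832), and without VSG replicate 5 it was -0.32 (adjusted p = 0.256). ChREBP-alpha and ChREBP-beta start at different promoters, and gene counts over the 10 annotated transcripts do not separate them.

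**Figure D2:**
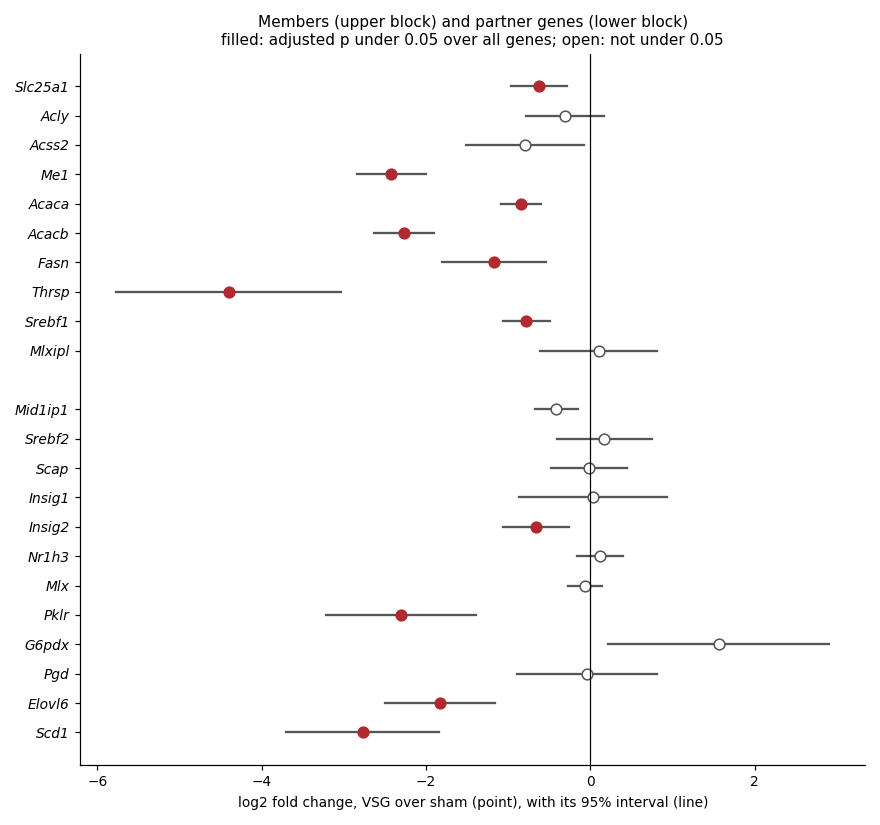
Log2 fold change of VSG over sham for the 10 lipogenic genes (upper block) and for partner genes (lower block); points are edgeR estimates, lines their 95% intervals, and filled points have an adjusted p under 0.05 over all genes. Of the 10 members 7 are filled, all left of 0, while the interval of Mlxipl runs from -0.61 to 0.81.

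The sham libraries differed among themselves in a shared way. Sham replicate 2 was the highest sham library in 8 of the 10 genes, and sham replicate 1 the lowest in 7 of them. In Acaca and Srebf1 sham replicate 2 was the lowest. In VSG no replicate stood out: replicates 4, 5 and 6 were the highest in 3, 4 and 3 genes.

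On a length-corrected scale (FPKM, counts corrected for exon length and library size), the order of mean levels was not the same in both groups. The length is that of all annotated exons of a gene, whichever transcripts the liver makes, so the order between genes depends on it. In sham the order of mean levels began with Thrsp at 103.7 ± 68 FPKM and Slc25a1 at 61.9 ± 8.65 FPKM, and ended with Acacb at 6.74 ± 1.3 FPKM and Acaca at 2.55 ± 0.182 FPKM. Thrsp and Slc25a1 overlapped in range, whereas Acacb lay above Acaca in all sham libraries. Mlxipl, Acly, Srebf1, Fasn and Me1 followed Slc25a1 in that order, from 34.4 ± 1.42 FPKM down to 23.1 ± 4.93 FPKM, and each neighbouring pair of these overlapped. In VSG the order began with Slc25a1 at 40.1 ± 4.44 FPKM and Mlxipl at 36.9 ± 16.4 FPKM, which overlapped. Thrsp was then seventh of the 10 at 4.91 ± 1.32 FPKM, next to Acss2 at 4.93 ± 1.51 FPKM and Me1 at 4.31 ± 0.401 FPKM, with overlapping neighbours. Acaca at 1.42 ± 0.106 FPKM and Acacb at 1.4 ± 0.0502 FPKM came last and overlapped each other.

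Thrsp alone made up 17.2% to 41.7% of the summed FPKM of the 10 genes in sham and 2.21% to 4.72% in VSG. The sum was 230.6, 419.9 and 307.3 FPKM in sham replicates 1 to 3 and 126.5, 155.6 and 146.1 FPKM in VSG replicates 4 to 6. Without Thrsp the sums were 190.9, 244.8 and 211 FPKM in sham and 120.5, 152.1 and 140.8 FPKM in VSG. The groups were separate with and without Thrsp.

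Ratios within a library show how unequally the genes moved, and do not depend on the scaling between libraries. For 7 pairs, the log2 ratios were compared by an exact two-sided permutation test, whose smallest possible p with 3 against 3 is 0.1, so none could pass. The 2 carboxylases came to near equal FPKM: the ratio of Acacb to Acaca was 2.22, 3.52 and 2.3 in sham and 0.978, 1.04 and 0.946 in VSG. These ratios rest on exon lengths of 9632 bases for Acacb and 17074 for Acaca. Without length correction the VSG means were 13.5 CPM for Acacb and 24.3 CPM for Acaca. The log2 ratio differed between groups by -1.41 (exact p = 0.1, adjusted over the 7 pairs 0.233), which does not depend on these lengths, and the groups did not overlap. Me1 to Acly, a supplier of reductant against a supplier of carbon, was 0.8, 0.783 and 0.812 in sham and 0.185, 0.239 and 0.145 in VSG, a log2 difference of -2.10 (exact p = 0.1, adjusted 0.233), again without overlap.

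Thrsp to Fasn went from 1.93, 6 and 4.26 in sham to 0.451, 0.495 and 0.444 in VSG, a log2 difference of -2.98 (exact p = 0.1, adjusted 0.233) without overlap. The other pairs overlapped. Fasn to Acaca, which act in sequence, differed by -0.36 in log2 ratio (exact p = 0.4). Acly to Slc25a1 differed by 0.32 (exact p = 0.2), Acss2 to Acly by -0.51 (exact p = 0.3) and Srebf1 to Mlxipl by -0.79 (exact p = 0.2), with adjusted values from 0.28 to 0.4.

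**Figure D3:**
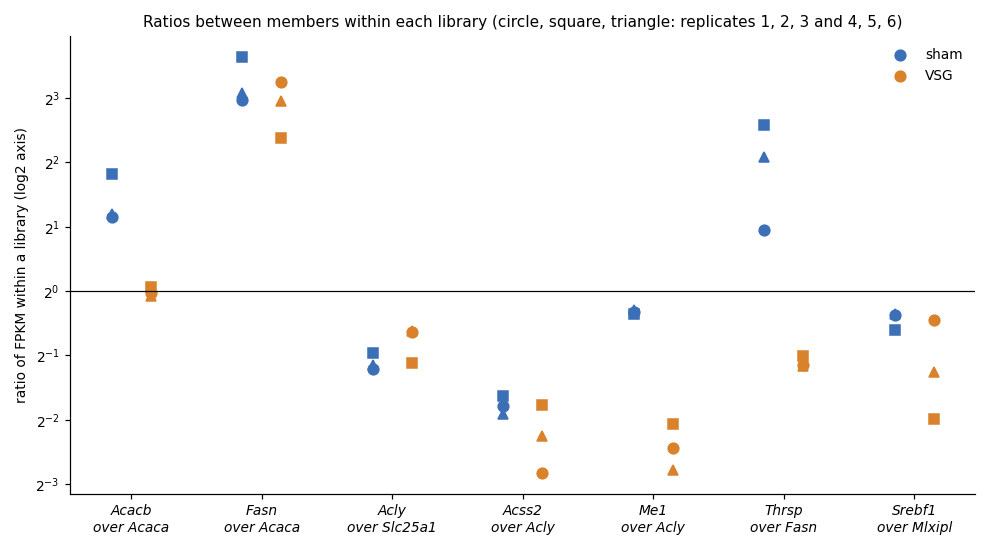
Ratio of FPKM between pairs of lipogenic genes within each library, on a log2 axis; blue points are sham libraries, orange points VSG libraries, and the line marks equal FPKM. Acacb over Acaca lies at 2.22 to 3.52 in sham and at 0.946 to 1.04 in VSG, and the ratios Me1 over Acly and Thrsp over Fasn are separate too.

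Profiles over the 6 libraries were compared by the root mean square difference of centred log2 CPM, among 9964 genes with a mean of at least 5 CPM. Acacb and Me1 were each other's nearest gene, at a distance of 0.14 log2 units, where the median gene was at 1.14 from Acacb. The genes nearest to Fasn were Map3k13 (0.08), Defb1 (0.14) and Rcan1 (0.19), and no member was nearer than Acaca at 0.38. Srebf1 was nearest to Cul7 (0.06), Myh14 (0.07) and Fkbp1a (0.08), with Acaca at 0.13. Mlxipl was nearest to Fbxo21 (0.09), Gas1 (0.10) and Pcnx4 (0.11), and its nearest member, Slc25a1, was at 0.44, where the median gene was at 0.43.

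Of 10 genes that make pyruvate, turn it into citrate or handle the carbon exported with it, 6 fell and none rose, with a median log2 fold change of -0.68. Over all genes tested, edgeR called 7.87% lower and 6.79% higher, shares that stand beside each list below as well. DESeq2 called 8 of them lower and none higher. None passed without sham replicate 3 or without VSG replicate 6, and 3 passed without sham replicate 2. Of the 6, Pdha1, Pdhb, Dlat and Cs act between pyruvate and citrate, whereas Pklr acts before pyruvate and Mdh1 after citrate export. Pklr, liver pyruvate kinase, went from 286 ± 93.3 to 58.1 ± 22.9 CPM (log2 fold change -2.30, edgeR adjusted p = 0.0168). The pyruvate dehydrogenase genes Pdha1 (-0.94, adjusted p = 0.0115), Pdhb (-0.66, 0.0243) and Dlat (-0.89, 0.0169) fell, as did citrate synthase Cs (-0.71, 0.0111) and cytosolic malate dehydrogenase Mdh1 (-0.70, 0.0357). Pyruvate carboxylase, Pcx, was at -0.49 (0.115), and the pyruvate carrier genes Mpc1 and Mpc2 were at -0.46 and -0.21 (0.182 and 0.441).

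Of 9 genes of the pentose phosphate pathway and of other NADPH sources beside Me1, 2 fell and 1 rose, where 7.87% of all genes fell and 6.79% rose. The median log2 fold change of the 9 was -0.21. Both that fell, Tkt and Taldo1, belong to the non-oxidative branch of the pentose phosphate pathway, which makes no NADPH itself. None of the 3 passed when sham replicate 2, sham replicate 3 or VSG replicate 6 was left out, and 1 passed without sham replicate 1. Without VSG replicate 5, 1 was lower and 2 were higher. Transketolase, Tkt, fell by 0.86 on the log2 scale (edgeR adjusted p = 0.0207) and transaldolase, Taldo1, by 0.52 (0.0439). H6pd, the hexose-6-phosphate dehydrogenase of the endoplasmic reticulum, rose from 429.2 ± 14.8 to 669 ± 40 CPM (log2 fold change 0.64, adjusted p = 0.0263), a call that total-count scaling did not make (0.50, adjusted p = 0.0766). G6pdx, the entry enzyme of the pentose phosphate pathway, went from 8.53 ± 3.07 to 25.2 ± 19 CPM (log2 fold change 1.56, adjusted p = 0.107), with overlapping groups. Its VSG libraries were at 46.4, 9.79 and 19.5 CPM, and without VSG replicate 4, the highest, the log2 fold change was 0.78 (0.242), while without VSG replicate 5 it was 1.92 and passed the test, and DESeq2 called it higher with all libraries (adjusted p = 0.0232). Pgd was at -0.04 (0.943) and Idh1 at -0.51 (0.0964).

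Of 15 genes that elongate, desaturate or activate the new fatty acids, 6 fell and none rose, with a median of -0.71. DESeq2 called 8 lower and none higher, and without sham replicate 3 and VSG replicate 6 edgeR called 0 and 1. Scd1, the main liver stearoyl-CoA desaturase, went from 16860 ± 2057 to 2468 ± 934.1 CPM (log2 fold change -2.77, edgeR adjusted p = 0.0114). Elovl6, which elongates palmitate, fell by 1.83 (0.0142), Fads2 by 1.45 (0.0129), Elovl5 by 1.29 (0.00994), Fads1 by 1.23 (0.0157) and Hsd17b12 by 0.97 (0.0196) on the log2 scale. Elovl3, which was at 0.13 (0.896), and Scd2, at 0.19 (0.816), did not pass.

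Of 12 genes that control SREBP-1, 1 fell and none rose, where 7.87% of all genes fell and 6.79% rose. The median log2 fold change of the 12 was 0.02. At an unadjusted p under 0.05, 2 were lower and 1 higher, against 17% and 16.9% of all genes. DESeq2 called 2 lower and none higher, against 12.3% and 10.5%. Insig2, which holds the SREBP precursor in the endoplasmic reticulum, fell by 0.66 on the log2 scale (edgeR adjusted p = 0.045). Its call was lost by limma-voom and when any 1 of the sham libraries or VSG replicate 6 was left out. Scap, the escort of SREBP to the Golgi, was at -0.02 (0.952), Insig1 at 0.03 (0.959), Srebf2 at 0.17 (0.649) and the LXR-alpha gene Nr1h3 at 0.12 (0.513). Lpin1, a phosphatidate phosphatase that also acts on SREBP in the nucleus, went from 217 ± 174.8 to 40.2 ± 6.72 CPM (log2 fold change -2.43, adjusted p = 0.0531), without overlap.

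Of 12 partners and targets of ChREBP, which share Pklr with the carbon list, 5 fell and none rose, with a median of -1.06. DESeq2 called 7 lower and none higher. Without sham replicates 2 and 3 edgeR called 1 and 0, and without VSG replicates 4 and 6 it called 2 and 0. Beside Pklr these included Txnip (-1.27, edgeR adjusted p = 0.027), Tkfc (-1.27, 0.0232) and ketohexokinase Khk (-1.13, 0.0332), of which Tkfc and Khk act in fructose breakdown. The DNA-binding partner Mlx was at -0.07 (0.615), and G6pc was at -2.25 (0.0636) and Gpd1 at -1.02 (0.0662).

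**Figure D4:**
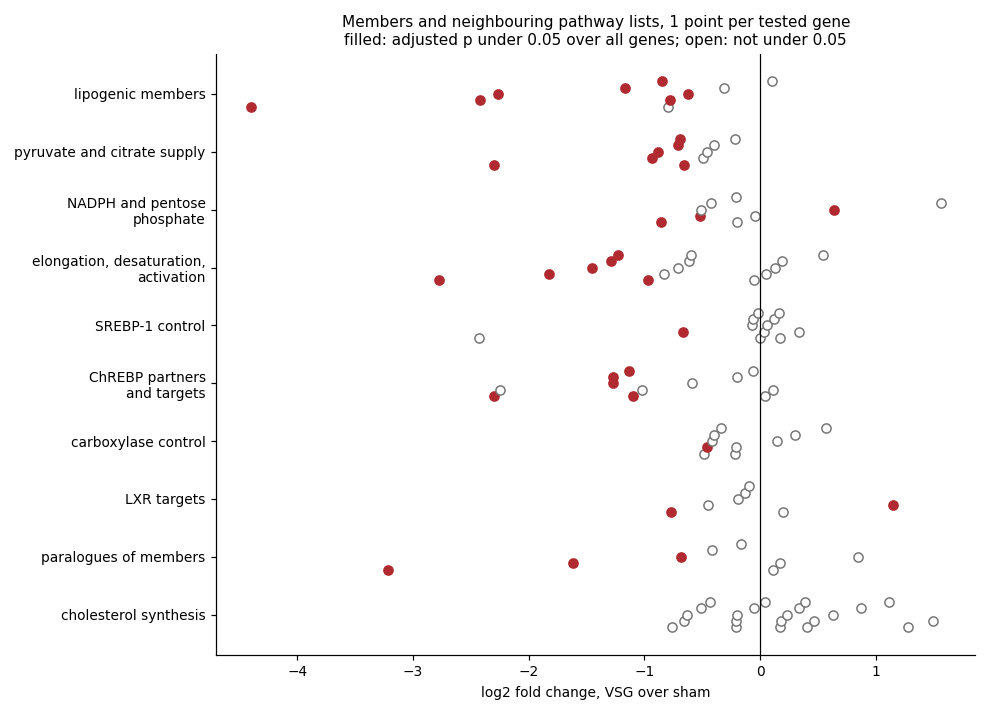
Log2 fold change of VSG over sham for each tested gene of the lipogenic set and of 9 neighbouring lists, 1 point a gene; filled points have an adjusted p under 0.05 over all genes. Points of the carbon, chain and ChREBP lists lie mostly left of 0 with 6, 6 and 5 filled, while none of the 22 cholesterol genes is filled.

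Of 10 genes that act on the carboxylases, 1 fell and none rose, while 5 were lower at an unadjusted p under 0.05, against 17% of all genes, and 2 were lower by DESeq2, against 12.3%, and by edgeR with RLE or total-count scaling. Hlcs, which attaches biotin to the carboxylases, fell by 0.46 on the log2 scale (edgeR adjusted p = 0.0302), and no longer passed without sham replicates 2 or 3 or VSG replicates 4 or 6, whereas 3 genes of the list passed without VSG replicate 5. Mid1ip1, the Spot 14 relative that assembles acetyl-CoA carboxylase into polymers, was at -0.41 (0.0508), beside the -4.40 of Thrsp, and passed by DESeq2 (0.018) and by edgeR with RLE or total-count scaling. The subunit genes of AMP-activated protein kinase, which switches the carboxylases off by phosphorylation, lay between -0.48 (Prkag2, 0.126) and 0.30 (Prkab1, 0.225), and none passed edgeR's test. Phosphorylation was not measured.

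Among 7 LXR targets outside the 10 genes, Lpcat3 fell (-0.77, edgeR adjusted p = 0.0416) and Abca1 rose (1.15, 0.0274), where 7.87% of all genes fell and 6.79% rose. Neither passed without any 1 of the sham replicates or without VSG replicate 6, nor did Lpcat3 without VSG replicate 4. Among relatives of the 10 genes, 8 of 9 could be tested and 3 fell: the mitochondrial acyl-CoA synthetase Acss3, from 87.3 ± 29.2 to 9.39 ± 4.5 CPM (-3.21, 0.00836), the dicarboxylate carrier Slc25a10 (-1.62, 0.00792) and the oxoglutarate carrier Slc25a11 (-0.69, 0.0216). The mitochondrial malic enzyme Me2 was at 0.85 (0.243), and Me3 had at most 5 counts in any library and was not tested. Of these relatives, 2 passed when sham replicate 2, sham replicate 3 or VSG replicate 4 was left out, and none without VSG replicate 6.

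Cholesterol synthesis, the other pathway under SREBP control, was set beside the lipogenic genes. None of its 22 genes passed edgeR's test, 2 were lower at an unadjusted p under 0.05, DESeq2 called none, total-count scaling called 3 lower, 1 was lower without sham replicate 1 and 1 higher without sham replicate 2, and the median log2 fold change was 0.18. Sqle, squalene epoxidase, had 27.7 ± 33.2 CPM in the sham group against 77.7 ± 58.1 CPM after VSG (1.49, 0.3). The spread between libraries was as large as the mean in several of these genes, so a difference was not detectable here. The difference between the 2 pathways was not tested.

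Among genes that respond to feeding and insulin, 3 of 11 fell and none rose, while DESeq2 called 6 lower. The 3 were Pdk4 (-2.28, edgeR adjusted p = 0.0142), Cpt1a (-0.93, 0.0356) and Ppargc1a (-0.79, 0.0371), all known to be high in fasting. Pck1, which encodes a gluconeogenic enzyme, was at -0.44 (0.47). Without sham replicates 2 and 3 edgeR called 1 and 0 of the 11, and without VSG replicates 4 and 6 it called 1 and 0. Of 13 clock genes, Clock alone rose (0.60, 0.0216), where 6.79% of all genes rose. Its call was lost without sham replicates 2 or 3 or VSG replicate 6. It was also lost under total-count scaling, which called none of the 13 higher and 1 lower. Without VSG replicate 5 edgeR called 2 higher and 1 lower, and DESeq2 with all libraries called 3 higher and 2 lower. The part of feeding state or hour in the lipogenic changes was not tested.

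All 16 acute-phase genes rose with all libraries, with a median log2 fold change of 2.58. Their summed level was 20290 to 22520 CPM in sham and 72930 to 151100 CPM in VSG. With sham replicate 2, sham replicate 3 or VSG replicate 6 left out, 9, 1 and 6 of them rose. In the same order these fits called 797, 159 and 210 of all genes in either direction, against 2118 with all libraries. Of the 797, 159 and 210 calls, 62%, 69.8% and 57.1% were lower. The 11 neutrophil markers summed to 2.88 to 15.2 CPM in sham and to 1874, 154.7 and 860.7 CPM in VSG replicates 4, 5 and 6. Of these markers only S100a8 and S100a9 had at least 10 counts in every library, and with that filter both rose. The other 9 passed the filter on low counts only through the VSG libraries, which fixes their direction, so their calls are not counted. Without sham replicate 3 or VSG replicate 6, edgeR called only 1 of the 11. Of 13 macrophage markers 4 rose (none without any 1 of sham replicates 2 and 3 and VSG replicate 6, and 2 without VSG replicate 4), and their sum was 501.7 to 1100 CPM in sham and 997.9 to 2625 CPM in VSG. VSG replicate 5, with the least neutrophil and acute-phase RNA of the VSG livers, had the lowest Fasn, Thrsp, Acly and Acaca levels of the 3 and the highest Mlxipl, Me1, Acss2 and Slc25a1 levels. Of 10 stellate cell markers 1 fell (6 by DESeq2, and 0 to 4 by edgeR with 1 library left out, none without sham replicates 1 or 3 or VSG replicate 6 and 4 without VSG replicate 5), and the sum was 668.9 to 1058 CPM in sham and 334.6 to 660.9 CPM in VSG. Of the other types, no endothelial (of 7) or erythroid (of 6) marker passed edgeR's test, with 1 of each higher at an unadjusted p under 0.05 and 0 and 1 by DESeq2, 1 cholangiocyte marker of 6 tested and 1 B and plasma cell marker of 5 tested rose, the former call being lost without any 1 of the sham libraries or VSG replicate 6 and by limma-voom and limma on log2(FPKM + 1), and no acinar marker had enough counts to be tested. The part of these cells and of the acute-phase response in the lipogenic changes was not tested.

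The calls rested on few animals. With 1 library left out, the number of lipogenic genes that passed was 6, 5 and 2 without sham replicates 1, 2 and 3, and 6, 7 and 3 without VSG replicates 4, 5 and 6. In the same order these fits called 5.11%, 3.31% and 0.748% of all genes lower, and 3.95%, 9.59% and 0.812%. Acacb and Me1 passed in each of the 6. With all libraries, DESeq2, limma-voom, limma on log2(FPKM + 1), another scaling (RLE) and both other filters each called 7 of the 10 genes lower, and total-count scaling called 8. By that scaling 75.7% of all calls were lower, against 53.7% by TMM.

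**Figure D5:**
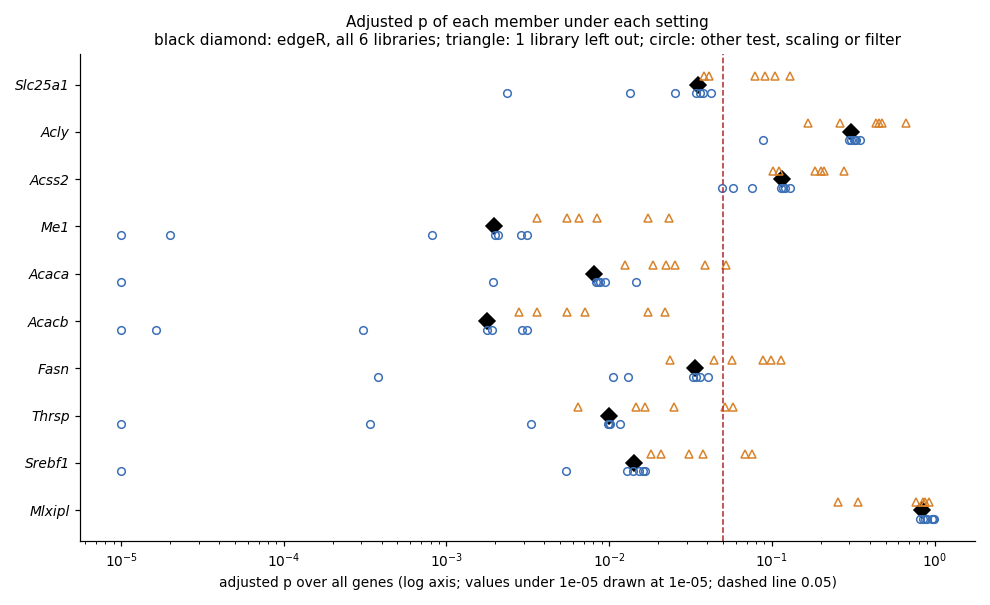
Adjusted p over all genes for each lipogenic gene on a log axis; black diamonds are edgeR with all 6 libraries, orange triangles leave out 1 library each, and blue circles use another test, scaling or filter. Every point of Acacb and Me1 lies left of the dashed line at 0.05, whereas Fasn and Slc25a1 have 4 triangles each to its right.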

How the data were processed

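PolyA-selected liver RNA from 3 sham and 3 VSG mice was sequenced as strand-specific libraries, about 40 mg of liver per sample. Per the study's methods and the submitters' processing notes, the authors checked reads with FastQC 0.10.1, aligned them with STAR 2.6.0 to mm10 and counted them with featureCounts, then tested genes with DESeq2. The processing notes give featureCounts as version 2.0.3, whereas the methods name another version of its package. The annotation release, strand option and treatment of multi-mapping reads are not given in the sources used here.

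The deposited values are raw read counts per gene with the summed exon length in bases, and every column was matched to 1 sample by its title. Gene identifiers were matched to GENCODE M21, with 54487 of 55385 equal in version. After edgeR's filterByExpr filter (count 10 and total 15 at least), 14454 genes were tested with edgeR 4.0.16 (R 4.3.3), TMM scaling and a quasi-likelihood model with group as the only term. Adjusted p-values are Benjamini-Hochberg values over all of these. CPM and FPKM were computed from the counts. Alternatives were DESeq2 1.42.0, limma 3.58.1 (voom, and log2(FPKM + 1) with pseudocount 1), other scalings and filters, and leaving out each library. A floor of 3 counts was 0.124 to 0.132 CPM, for counting error only.

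The members and gene lists were chosen with earlier results of these data known. Named genes were all members, fixed partners of each, list genes past the threshold with the largest changes, and the 3 nearest profiles of Fasn, Srebf1 and Mlxipl. Other genes were named after their values were seen, and some genes of the lists are not reported here. The counts of list genes, and of all genes in each direction, under the alternatives were added after seeing the data.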

Additional observations from a re-analysis of the deposited data

How the results depend on the processing

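No paired analysis was made, because the sample labels give no pairing between the sham mice (replicates 1 to 3) and the VSG mice (replicates 4 to 6). The number of genes that differed was 2118 with edgeR and 3288 with DESeq2, and ran from 159 to 2732 when 1 library was left out. The number of lipogenic genes that were lower was 7 and ran from 2 to 7 when 1 library was left out, lowest without sham replicate 3. Leaving out a library also removes residual degrees of freedom, since 5 samples remain. Under total-count scaling, which shifts the median of all genes to -0.11, the log2 fold change of Mlxipl turned to -0.028, of Insig1 to -0.061, of Nr1h3 to -0.019 and of Pcnx4 to -0.060, none past the threshold. With 1 library left out, the log2 fold change ran from -0.32 to 0.35 for Mlxipl, from -0.03 to 0.43 for Srebf2, from -0.23 to 0.12 for Scap, from -0.19 to 0.59 for Insig1, from -0.49 to 0.23 for Pgd, from -0.42 to 0.27 for Fbxo21, from -0.52 to 0.23 for Gas1 and from -0.22 to 0.27 for Pcnx4. The cause of these shifts was not tested. On the log2(FPKM + 1) scale, whose pseudocount shrinks the changes of low genes, the log2 fold change was -1.68 for Acacb, -2.50 for Acss3 and -1.68 for Pdk4. Fold changes of Thrsp, Me1, Acacb, Fasn, Acaca, Acly, Acss2, Srebf1 and Slc25a1 were negative in all 13 alternatives. With 3 libraries a group, intervals as wide as that of Mlxipl leave changes of moderate size undetected. With a minimum of 1 CPM for the nearest profiles, the third gene nearest to Fasn was D430019H16Rik.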
